A study of Mus musculus with 4 samples.

Results

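A run of 9 regions on chromosome 10, listed as peaks by the authors' peak caller, lies on the upstream side of Sgk1 in open chromatin data from mouse mammary cancer cells. The regions are those of the deposited list on chromosome 10 whose midpoint falls between 21 and 22 Mb of the mm9 genome. They make up 9 of the 215 regions on that chromosome and 9 of the 3190 in all. The stretch was chosen by the number of listed regions it holds, so the count and the closeness of the regions are given as a description, with no test. Although the stretch was picked out as the Sgk1 locus, none of the 9 regions overlapped the approximate position of the gene, and they are called the regions upstream of Sgk1 here.

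The assay was FAIRE-seq, in which chromatin is fixed with formaldehyde, sheared and extracted with phenol, and the DNA left in the aqueous phase, which is poor in nucleosomes, is sequenced. Cancer cells came from MMTV-PyMT mice, in which the mouse mammary tumour virus promoter drives the polyomavirus middle T antigen in mammary epithelium, on the FVB background. The hyperglycemic cells came from MMTV-PyMT/PANIC mice and the euglycemic control cells from MMTV-PyMT mice, so mouse line and glucose state cannot be told apart. Both were freshly isolated, then cultured in DMEM with fetal bovine serum without further treatment, and neither age nor the number of animals is given in the labels. Each condition had 1 FAIRE library and 1 input DNA library, 4 in all, without replicates. The single deposited list is tied to no library, and it does not say which library was the control. No value below can be assigned to the hyperglycemic or the euglycemic cells, no difference between them could be measured, and read depth is unknown. A peak list holds no expression values, so the labelled cell type could not be checked against marker genes.

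Sgk1 encodes serum- and glucocorticoid-induced kinase 1, a serine/threonine kinase of the AGC family that is closely related to AKT. It works downstream of PI3K: the mTORC2 complex and PDK1 phosphorylate and activate it, and its known substrates include the transcription factor FOXO3, the ubiquitin ligase NEDD4L and NDRG1. Unlike AKT it is controlled strongly at transcription, being an immediate early gene induced by serum, glucocorticoids and mineralocorticoids, and it was first found in rat mammary tumour cells. Raised glucose has also been described as an inducer in other cell types. RefSeq lists 6 transcription start sites for mouse Sgk1 in assembly GRCm38.p6, all on the plus strand, so that positions below the gene on chromosome 10 are upstream of it.

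The glucocorticoid receptor binds palindromes of 2 copies of the letters TGTTCT in opposite directions, spaced by 3 bases. That motif and the TATA box letters were therefore searched in the 250 bases before each of the 6 starts, a search chosen after the sequences had been seen. The 2 windows below, from RefSeq on GRCm38.p6 (plus strand, 5′ to 3′), are shown because they hold the complete palindrome and the TATA letters before the last start. Capitals mark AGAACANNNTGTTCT in the first and TATAAA in the second. Their positions are of another build than the peak list and cannot be set beside the mm9 positions of the regions.
Sgk1 start 5, chr10:21993640-21993889: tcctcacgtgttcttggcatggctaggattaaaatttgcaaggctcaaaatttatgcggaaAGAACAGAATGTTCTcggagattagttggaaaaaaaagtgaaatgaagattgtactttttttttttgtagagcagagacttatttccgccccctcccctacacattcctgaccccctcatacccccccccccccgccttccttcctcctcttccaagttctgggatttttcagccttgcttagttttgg
Sgk1 start 6, chr10:21994416-21994665: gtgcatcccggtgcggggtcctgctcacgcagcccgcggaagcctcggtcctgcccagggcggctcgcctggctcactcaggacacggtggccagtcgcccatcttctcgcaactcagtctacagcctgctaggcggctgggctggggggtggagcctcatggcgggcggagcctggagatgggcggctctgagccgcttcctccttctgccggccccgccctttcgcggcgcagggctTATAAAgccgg

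Searched on both strands, the palindrome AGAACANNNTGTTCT occurred in 3 of 32851 promoter windows of the same length (0.00913%). Only exact matches were counted and inexact copies of the palindrome were not searched, so this is not the share of windows with receptor sites. The 3 windows belong to Sgk1, Acnat2 and Gm35041, named after the matches were seen. In the window of the fifth of the Sgk1 starts it spans the bases from 189 to 175 before that start. The same letters lie 965 to 951 bases before the sixth. TATAAA was found in 2 of the 6 Sgk1 windows, before the fourth start (28 to 23 bases) and the sixth (11 to 6 bases), against 12.4% of all windows. TGTTCT alone, which is part of the palindrome and so overlaps it, was found in 3 of 6 Sgk1 windows against 16.1% of all. The cyclic AMP response element TGACGTCA was found in 0 of 6 against 1.55%. The window of the sixth start stood apart in base composition, with 70.4% G and C and 22 CpG dinucleotides, whereas the other 5 had 43.6% to 48.4% and 2 to 7 CpG (median of all windows 52.4% and 6). These matches describe letters and do not show binding.

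The Sgk1 interval used for distances runs from about 21.6 to 21.72 Mb in mm9. All 9 regions lay below it, 0 overlapped it and 0 lay above it within the window. Distances, rounded to kb, were taken from the nearest edge of each region to the start of the interval. They are not distances to any of the 6 transcription start sites. In GRCm38.p6 the windows before the first and the sixth start end at 21882183 and 21994665. The later starts, with the 2 printed windows, thus lie well above the first and farther from the regions than it does. Because that start is known only to about 0.1 Mb, each distance may be off by about 50 kb, and with the interval widened by 50 kb on each side 2 regions would overlap it. With 20 kb, 0 would.

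The 9 regions fell into parts separated by the longest gap among them, 154 kb. The 4 nearest to Sgk1 formed a compact group of 73.9 kb, and the 5 farther ones were spread over 236 kb. Positions are on chromosome 10 of mm9, counted from 1, and scores are the authors' own values, which rank regions within this list.

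The region nearest to Sgk1, chr10:21566294-21567112, lay about 33 kb below the start of the interval, was 819 bp wide and scored 74.46. Next came chr10:21553225-21554237 at about 46 kb, 1013 bp wide with a score of 112.28. The third, chr10:21520935-21522042 at about 78 kb, was both the widest of the 9, at 1108 bp, and the highest scoring, at 146.94. That score ranked 10 of 215 on chromosome 10 and 66 of 3190 in the list, and the score of its neighbour at 46 kb ranked 20 and 235. The fourth, chr10:21493251-21494051 at about 106 kb, was 801 bp wide and scored 79.17. All 4 scored above the median of the list, 64.42, and the 2 in the middle of the group were its strongest and broadest.

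Beyond the 154 kb gap, a lone region at chr10:21338392-21338967, about 261 kb from the Sgk1 interval, was 576 bp wide and scored 55.71. A close pair followed at about 375 and 383 kb, with only 6.63 kb between its members. In this pair chr10:21224009-21224780 was 772 bp wide and scored 53.32, the lowest score of the 9, and chr10:21216570-21217377 was 808 bp wide and scored 71.26. The farthest regions also lay as neighbours, 15.8 kb apart. Of these chr10:21118997-21119422, at about 481 kb, was the narrowest of the 9 at 426 bp and scored 57.76, and chr10:21102477-21103180, at about 497 kb, was 704 bp wide and scored 82.77. Among these 5 regions 2 scored above the median of the list, and none reached 100.

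**Figure D1:**
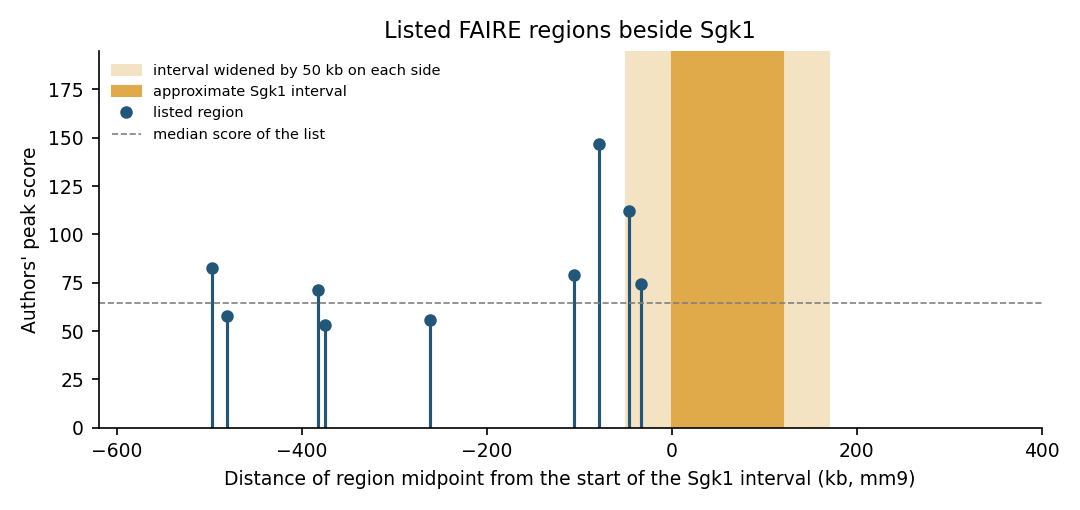
Each stem is 1 listed region, placed by the distance of its midpoint from the start of the approximate Sgk1 interval (kb, negative upstream) with the authors' score as height; shading marks the interval and its widening by 50 kb, and the dashed line the median score of the list (64.42). All 9 regions stand to the left of the interval, and the highest score, 146.94, belongs to the group of 4 nearest to it.

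Divided at that longest gap, a choice made after the values were seen and so not tested, the 4 near regions had a median score of 95.7 (74.46 to 146.94) and the 5 far regions one of 57.8 (53.32 to 82.77). The ranges overlapped, because the farthest region of all outscored 2 of the near 4. Median widths were 916 bp (801 to 1108) and 704 bp (426 to 808), and here too the ranges overlapped slightly.

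Taken as a set, the 9 regions had widths and scores within the range of chromosome 10. Their median width was 801 bp, against 776 bp for the other 206 regions on the chromosome. The 95% order-statistic limits of the median were 576 and 1013 bp. Such limits treat the 9 as independent draws, which regions picked by place from 1 list are not, so no conclusion is drawn from them. Their median score was 74.46 (limits of this median 55.71 and 112.28) against 66.13 for those 206. Scores reached 100 in 2 of 9 regions, where 12.2% of the whole list and 14.4% of chromosome 10 did. Scores at or above the median of the list were held by 6 of 9, against 50.1% of the list and 53.0% of chromosome 10. These medians and shares rest on 9 regions of 1 list, and their differences were not tested. Wider regions tended to score higher among the 9 (Spearman's rho 0.68 across 9 regions) and across the other 206 (rho 0.48), where width and score come from the same caller and the same reads.

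**Figure D2:**
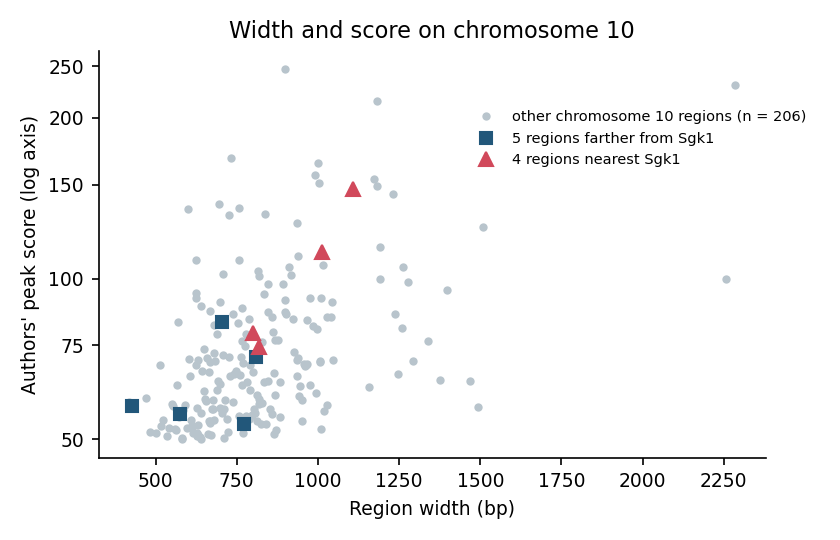
Width (bp) against the authors' score (log axis) for the 215 chromosome 10 regions: triangles are the 4 regions nearest to Sgk1, squares the 5 farther ones and grey points the other 206. The regions of 1108 and 1013 bp lie toward the upper right, and the region of 426 bp is near the narrow end of the chromosome's range.

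Spacing was uneven. The 8 gaps between successive regions had a median of 29.0 kb. Of these, 5 gaps were under 40 kb, from 6.63 to 31.2 kb, and the other 3 were 97.1, 114 and 154 kb. The median of all 214 gaps on chromosome 10 was 181 kb. Another region lay within 10 kb for 2 of the 9, where 12.6% of nuclear regions and 13.0% of chromosome 10 regions had one, and within 100 kb for 8 of the 9, against 49.8% and 58.6%. The stretch was chosen for its density, which fixes the second of these counts in large part, so nothing is read from it. No 2 of the 9 lay within 2 kb of each other (3.64% of nuclear regions and 3.72% of those on chromosome 10 did).

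The list was empty for a longer distance downstream of the 9 than upstream. The preceding region, chr10:20668172-20668590 (419 bp, score 58.58), ended 434 kb before the first of them, and 68 of the 214 gaps on chromosome 10 were longer than that. On the other side nothing was listed for 2.74 Mb, across the Sgk1 interval and beyond it, until chr10:24311750-24312692 (943 bp, score 60.36). Here 9 of the 214 gaps were longer. Both flanking regions scored below the median of the list. The 9 regions spanned 465 kb, leaving 102 kb at the start and 433 kb at the end of the window empty, and covered 0.703% of its bases.

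In the RefSeq gene order of GRCm38.p6, used for names only, the nearest protein-coding genes upstream of Sgk1 are Aldh8a1, an aldehyde dehydrogenase, Hbs1l, a factor in ribosome rescue, and Myb, a transcription factor of blood cell and epithelial progenitors, followed by Ahi1, a gene of the primary cilium, and Pde7b, a cyclic AMP phosphodiesterase. The 5 genes of any kind directly upstream are noncoding: Gm23839, Gm46215, Platr6, Gm5420 and 1700020N01Rik. Downstream, the nearest protein-coding genes are 4930444G20Rik, E030030I06Rik, Raet1e, H60b and Raet1d, of which Raet1e, H60b and Raet1d encode ligands of the lymphocyte receptor NKG2D. Among genes of any kind, Gm18511, Gm7672, Gm18637 and Gm34267 come before 4930444G20Rik. Which of these genes, if any, hold or adjoin the 9 regions in mm9 was not analysed here.

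Equal windows on the same chromosome were sparser. Of the 126 windows of 1 Mb from the first to the last region of chromosome 10, 47 held no region, the median window held 1 and the mean was 1.71. At least 7 regions were held by 4 windows (3.17%), with 9 in the window upstream of Sgk1 and 0 windows above it. The other 3 held 7 (12000001 to 13000000), 8 (27000001 to 28000000) and 8 (111000001 to 112000000). The leading place depended on where the windows began and how long they were. With the grid moved by 250 kb, which divides the 9 regions, the window holding most of them had 5 regions and ranked 9, a count shared by 8 windows. With the grid moved by 500 kb, the window holding most of the 9 had 7 regions and ranked 3, and with windows of 2 Mb it had 10 and also ranked 3. The most regions within any 1 Mb of the chromosome were 10, against 9 here.

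**Figure D3:**
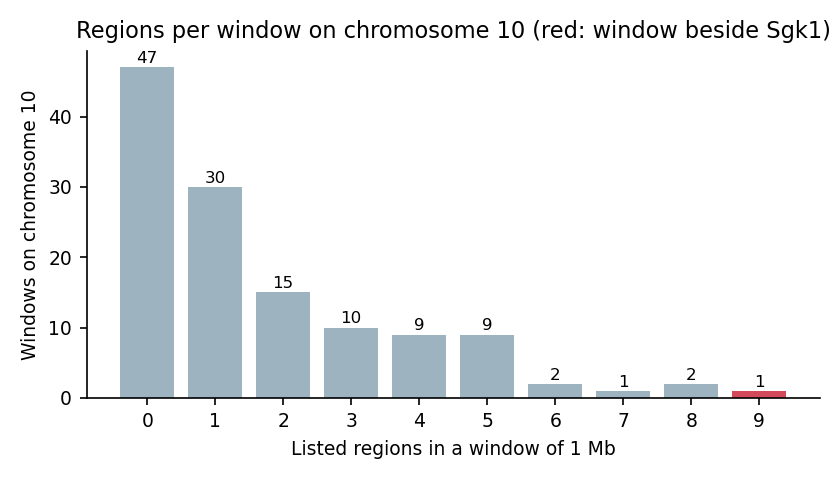
Number of 1 Mb windows on chromosome 10 (vertical axis) by the number of listed regions they hold (horizontal axis), over 126 windows. The window upstream of Sgk1, in red, is the 1 with 9 regions, and 47 windows hold none.

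The crowded windows of chromosome 10 varied in both spacing and score. Median gaps within the other 3 were 36.2, 19.2 and 35.0 kb in the order above, beside 29.0 kb upstream of Sgk1. Median scores were 58.15 in the first, 76.3 in the second and 55.3 in the third, beside 74.46. The second window holds the highest score of the chromosome, 246.65, and the third does not reach 100, with a highest score of 76.47. Runs of 9 successive regions as short as 465 kb occurred 4 times among 207 on chromosome 10, the run upstream of Sgk1 included, and 2 of the others overlap each other. Runs of 4 as short as the near group, 73.9 kb, likewise occurred 4 times among 212, once in each of the 4 crowded windows. Their median scores were 60.1, 63.7 and 56.1 in the other 3, and 95.7 in the group near Sgk1. That group also held the highest single score of these 4 runs. The length was set by a group divided off after the values were seen. With 4 regions in each run and no replicates, the difference in median score was not tested. In the second window the run leaves out close regions scoring 82.69, 127.09 and 92.13, with gaps of 15.0 and 3.30 kb between them. High scores in closely spaced regions were thus not particular to the group near Sgk1.

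Across the whole list, 6 windows held 9 or more regions, and 2 others held exactly 9. The one on chromosome 15 (61000001 to 62000000) had a median score of 92.2 (51.27 to 124.27) and a median width of 997 bp. The one on chromosome 7 (119000001 to 120000000) had a median score of 68.16 (51.73 to 116.44) and a median width of 639 bp. The 9 regions upstream of Sgk1 lay between these 2 windows in both measures and extended over 465 kb, against 898 kb on chromosome 15 and 866 kb on chromosome 7, with median gaps of 29.0 kb against 71.3 and 124 kb. In the 3 windows with more regions, median gaps were 30.9 kb on chromosome 15 (59000001 to 60000000, 10 regions over 459 kb), 26.9 kb on chromosome 5 (91000001 to 92000000, 15 regions over 673 kb) and 14.2 kb on chromosome 13 (111000001 to 112000000, 11 regions over 701 kb). All 6 windows were picked by their counts, and these values describe them without a test.

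**Figure D4:**
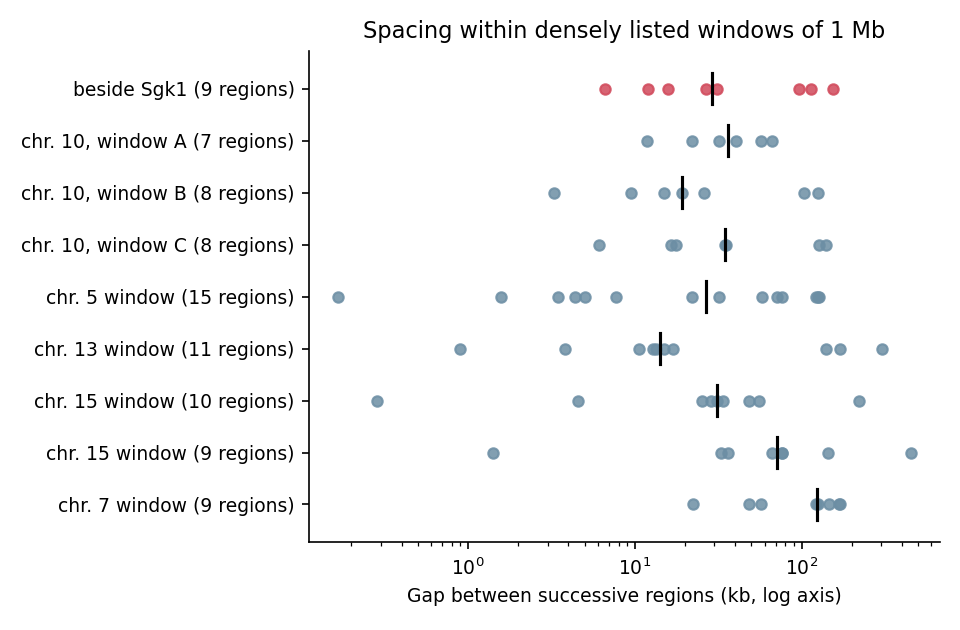
Each point is a gap between successive regions (kb, log axis) and each black bar the median gap of a window; windows A, B and C are the chromosome 10 windows with 7, 8 and 8 regions in the order of the chromosome, and the other windows are those elsewhere with 9 or more regions. The gaps upstream of Sgk1 (red) reach from 6.63 to 154 kb with a median of 29.0 kb, within the range of medians of the other 8 windows (14.2 to 124 kb).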

How the data were processed

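FAIRE and input DNA were sequenced single-end on a SOLiD instrument, per the labels' design text. The submitters' processing notes name MACS and the mm9 build. For the aligner, settings, control library and the scale of the score, nothing is given in the sources used here. The deposited list gives coordinates, a name and a score per peak, the score being the authors' own value; the lowest was 50.01. Read depth is unknown.

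Starts were printed counted from 1. Windows of 1 Mb were filled by peak midpoint over the stretch of the chromosome that holds peaks, and gaps run from edge to edge. Limits of medians are binomial order statistics that treat peaks as independent draws, and they cover no variation between libraries or animals. The Sgk1 interval is approximate. No mm9 genome was used, so peak sequences are not printed. Promoter windows came from RefSeq on GRCm38.p6. Every peak of the stretch, the genes beside Sgk1 and chromosome 10 windows with at least 7 peaks were named. Members and lists were chosen with earlier results of these data known. Functions were tested on simulated data. Calculations ran in Python 3.11.15 (pandas 2.3.3, numpy 2.4.6, scipy 1.17.1), and plots were drawn with matplotlib 3.10.9.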

Additional observations from a re-analysis of the deposited data

How the results depend on the processing

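No paired analysis was possible because the values come from a single list tied to no library, and leaving out a library could not be tried either. A score minimum at the upper quartile of the list left 3 of the 9 regions. The rank of the window on chromosome 10, 1 as counted, became 9 with the grid moved by 250 kb, which divides the regions between 2 windows, and 3 with a shift of 500 kb, with windows of 500 kb and with windows of 2 Mb. It stayed at 1 with a shift of 750 kb (tied), at or above the median score (tied) and after merging within 10 kb. Regions with a neighbour within 10 kb numbered 2, against 0 within 2 kb and 8 within 100 kb. Regions within 100 kb of the Sgk1 interval numbered 3, and 2 to 4 under the other distances and widenings. The widening by 50 kb was added after the data were seen. With only scores at or above the list median, median width went from 801 to 813.5 bp and median score from 74.46 to 80.97. The median gap went from 29.0 to 31.2 kb. This setting reuses the same regions, and a score minimum cannot lower the median score, so nothing is read from these values. Unknown depth leaves unmeasured how many regions fell below the caller's threshold.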
